A study of Mus musculus with 12 samples.

Results

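The CXCR3 ligand chemokines are Cxcl9, Cxcl10 and Cxcl11, the secreted proteins that bind the receptor CXCR3. All probe sets annotated to these 3 genes were followed, which gave 3 of 18194 genes with a probe set of their own, and 5 probe sets (2 for Cxcl9, 1 for Cxcl10 and 2 for Cxcl11) of 45101 in the table. RNA of mouse embryonic fibroblasts (MEFs) was measured on 12 Affymetrix arrays, 2 in each of 6 groups. AMN107-IFNg cells had received AMN107 and then interferon gamma for 6 h, IFNg cells interferon gamma alone, AMN107-IFNa cells AMN107 and then interferon alpha for 6 h, IFNa cells interferon alpha alone, AMN107 cells the drug alone and DMSO cells the vehicle. AMN107 is nilotinib, an inhibitor of ABL kinases that also acts on other kinases. The sources used here state neither its dose nor how long it was given, nor the strain or passage of the fibroblasts, so each group describes cultured fibroblasts at 1 interferon time.

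CXCR3 sits on activated T cells and natural killer cells, which follow its ligands into inflamed tissue. Interferon gamma signals through JAK1 and JAK2, induces the transcription factor IRF1, and is the classical inducer of Cxcl9. Type I interferons signal through JAK1 and TYK2 to a complex that contains STAT2 and IRF9 and binds the interferon-stimulated response element (ISRE). Cxcl10 carries such an element and NF-kappaB sites and answers to either kind of interferon, while Cxcl11 is commonly described as responsive to both. Fibroblasts are one of the known sources of these chemokines.

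The ligand genes lie side by side on mouse chromosome 5, on the minus strand, in the order Cxcl9, Cxcl10, Cxcl11 in the RefSeq table of assembly GRCm38.p6. That table types Cxcl9 and Cxcl10 as protein coding and Cxcl11 as a transcribed pseudogene. The C57BL/6 allele of Cxcl11 is known to carry a frameshift, so a Cxcl11 signal is a transcript measurement that does not by itself report a secreted protein. The 250 bases before the start were available for 2 of the 3 ligands, Cxcl9 and Cxcl10, and are shown because Cxcl10 passed the test after each treatment and Cxcl9 only with interferon gamma. The Cxcl9 stretch is chr5:92328080-92328329 and the Cxcl10 stretch chr5:92348890-92349139, GRCm38.p6, minus strand, printed 5′ to 3′, with capitals marking matches to the motifs named after them.
Cxcl9: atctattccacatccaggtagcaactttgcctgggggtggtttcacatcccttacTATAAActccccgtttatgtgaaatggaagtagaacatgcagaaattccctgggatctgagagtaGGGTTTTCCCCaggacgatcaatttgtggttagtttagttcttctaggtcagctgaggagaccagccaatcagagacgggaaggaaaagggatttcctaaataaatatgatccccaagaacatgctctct
Cxcl10: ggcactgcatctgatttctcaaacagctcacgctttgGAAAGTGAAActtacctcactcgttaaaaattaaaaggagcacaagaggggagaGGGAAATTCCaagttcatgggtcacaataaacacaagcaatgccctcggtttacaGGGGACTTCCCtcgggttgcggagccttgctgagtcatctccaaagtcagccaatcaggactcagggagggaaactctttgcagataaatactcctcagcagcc
Both strands were searched for 4 letter patterns. The ISRE core was written as GAAA, any 2 bases, then GAAA, and the interferon gamma activated site (GAS) as TTCNNNGAA. A loose NF-kappaB pattern was GGG, any 5 bases, then CC, and the last pattern was TATAAA. The Cxcl10 stretch held 1 ISRE core match, GAAAGTGAAA, at bases 213 to 204 before the start. It also held NF-kappaB matches at bases 159 to 150, 104 to 95 and 103 to 94, the last 2 of which overlap. No GAS or TATAAA match lay in the Cxcl10 stretch. The Cxcl9 stretch held no ISRE core or GAS match, overlapping NF-kappaB matches at bases 130 to 121 and, on the other strand, 129 to 120, and a TATAAA at bases 195 to 190. Of 32851 RefSeq mouse promoter stretches of this length, 2.98% held the ISRE core, 7.02% the GAS pattern, 45.8% the loose NF-kappaB pattern and 12.4% TATAAA. Of 25 other chemokine genes, 2 held the ISRE core, 2 the GAS pattern, 12 the loose NF-kappaB pattern and 9 TATAAA. A match is a match of letters and not a measured binding site, and an absent match covers this window alone.

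The arrays had median signals of 20.6 to 22.7. One array stood apart: IFNa replicate 2 had a GAPDH 5′ to 3′ signal ratio of 0.0252, while this ratio was 1.12 to 1.16 on the 6 AMN107 arrays and 1.07 to 1.10 on the other 5. The SD of the difference between replicates over tested probe sets was 0.435 (log2) in the IFNa group and 0.131 to 0.157 in the other groups. Ligand comparisons that include the IFNa group are therefore given with and without IFNa replicate 2. The fit shared its estimate of spread over all 12 arrays, so the IFNa arrays also entered every other test and share called. Without both IFNa arrays, 28.8% of probe sets were called in IFNg against DMSO, 52.3% in AMN107 against DMSO and 34.5% in AMN107-IFNg against IFNg. With all 12 arrays these shares were 8.98%, 33.1% and 15.4%. The spiked-in LysX 3′ control read 36.1 to 41.4 on the IFNg and AMN107 arrays, 81.1 and 45.4 on the IFNa arrays and 59.6 and 66.2 on the DMSO arrays. The actin 5′ to 3′ ratio was 0.798 to 0.830 on the AMN107 arrays, 0.791 and 0.795 on the IFNg arrays, 0.696 and 0.212 on the IFNa arrays and 0.676 and 0.712 on the DMSO arrays. The part of these controls in the differences from DMSO was not tested. Of 12 fibroblast markers, 9 lay above the array median on all 12 arrays and 2 (Thy1 and Lum) on none. The summed fibroblast marker signal was 7200 to 7451 on the 6 AMN107 arrays, against 9662 to 11798 on the arrays without AMN107. Its part in the effects of AMN107 was not tested. Single markers went both ways. S100a4 read 2255 and 2173 in AMN107 against 5168 and 5193 in DMSO cells, and Vim 3764 and 3862 against 2823 and 2786. Of 10 tested fibroblast markers, 1 was called higher in AMN107 than in DMSO cells, 3 lower and 6 not called. Of 12 macrophage and leukocyte markers, 3 (Csf1r, Cd14 and Cd3e) lay above the median on all arrays and 6 on none, among them the defining markers Ptprc and Adgre1. Their summed signal was 316 to 329 in AMN107-IFNg, 388 to 403 in IFNg, 346 to 382 in AMN107-IFNa, 364 to 365 in IFNa, 374 to 387 in AMN107 and 388 to 400 in DMSO cells. Of 7 epithelial markers, 1 (Epcam) lay above the median on all arrays and 3 on none. Their sum was 127 to 152 on the AMN107 arrays against 156 to 206 on the others. Of the 3 tested, 2 were called lower in AMN107 than in DMSO cells, where 33.1% of all tested probe sets were called either way. Of 7 endothelial markers, 6 lay above the median on no array, and their sum was 99.2 to 112 on the AMN107 arrays against 95.6 to 121 on the others. The part of these markers in the ligand differences was not tested. In bulk RNA, a change in the share of cells that make a transcript and a change in the amount per cell cannot be told apart.

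Among the single treatments, only interferon gamma was followed by a rise in Cxcl9 RNA, which was larger still when AMN107 preceded the interferon. Its brighter probe set, 1418652_at, read 634 and 517 in AMN107-IFNg cells and 283 and 224 in IFNg cells. It read 8.37 and 6.26 in AMN107-IFNa cells, 6.11 and 6.37 in IFNa cells, 6.99 and 5.87 in AMN107 cells and 8.88 and 9.93 in DMSO cells. The groups with interferon gamma did not overlap each other or any other group, and the remaining 4 groups sat at the dim end of the array. In AMN107-IFNg cells the signal lay at the 92.5th to 93.9th percentile of its array and in IFNg cells at the 86.1st to 88.1st, against the 24.0th to 26.9th percentile in DMSO cells. Signal of the other 3 groups lay between the 17.0th and 24.0th percentile, where the values do not set a level for Cxcl9. It entered the tests through the 4 arrays with interferon gamma, the only ones on which it lay above the median.

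The log2 difference in Cxcl9 between IFNg and DMSO was 3.85 (SE 0.13, limma adjusted p = 6.58e-08), on the scale log2(signal + 8.66) that all differences here use. The means were 254 ± 41.7 in IFNg and 9.41 ± 0.745 in DMSO cells (SD, n = 2). Since the DMSO signal is dim, the size of this difference depends on the offset and ran from 3.14 to 4.61 over the alternatives. Between AMN107-IFNg and AMN107 the log2 difference was 5.27 (SE 0.13, limma adjusted p = 1.08e-08), and 4.41 to 6.27 over the alternatives, again against dim signals. IFNa cells differed from DMSO cells by -0.28 (SE 0.13, limma adjusted p = 0.147), and by -0.29 (adjusted p = 0.233) without IFNa replicate 2. AMN107 cells differed from DMSO cells by -0.26 (limma adjusted p = 0.149) and AMN107-IFNa from AMN107 cells by 0.08 (limma adjusted p = 1.0). These 3 differences rest on signals near or below the 25th percentile. The smaller Cxcl9 probe set, 1456907_at, lay below the median of all 12 arrays and was not among the tested probe sets. It read 16.0 and 9.51 in AMN107-IFNg and 9.97 and 13.3 in IFNg cells, and 4.09 to 5.11 on the other 8 arrays. In a fit of all probe sets with no filter, it differed by 0.60 between IFNg and DMSO (limma adjusted p = 0.0116). There it differed by 0.06 between AMN107-IFNg and IFNg (limma adjusted p = 0.805), so the further rise under AMN107 was called on the brighter probe set alone.

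Cxcl10 RNA was abundant in every group and higher than DMSO after every treatment. Probe set 1418930_at read 5135 and 5360 in AMN107-IFNg cells, 3158 and 3155 in IFNg cells and 2781 and 3080 in AMN107-IFNa cells. Signals of 1422 and 1150 were read in IFNa cells, 1617 and 1935 in AMN107 cells and 967 and 947 in DMSO cells. The means (± SD, n = 2 each) were highest in AMN107-IFNg (5248 ± 159), then IFNg (3157 ± 2.28) and AMN107-IFNa (2931 ± 212). Next came AMN107 (1776 ± 225), IFNa (1286 ± 193) and DMSO (957 ± 14.0). No neighbours in this order overlapped, but the order was set from the same arrays, so this does not test it. IFNg and AMN107-IFNa cells, at 3155 and 3080 on their nearest arrays, were not told apart. AMN107-IFNa differed from IFNg by -0.11 on the log2 scale (interval -0.35 to 0.13). On all 12 arrays Cxcl10 lay between the 96.2nd and the 99.7th percentile, so its DMSO level was already among the brightest on the array.

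The log2 difference in Cxcl10 between IFNg and DMSO was 1.71 (SE 0.11, limma adjusted p = 8.13e-06), or 3.28-fold. For AMN107 against DMSO it was 0.88 (SE 0.11, limma adjusted p = 0.000389), or 1.84-fold. For IFNa against DMSO it was 0.41 (SE 0.11, limma adjusted p = 0.0435), or 1.33-fold. The IFNa call was lost in 14 of 23 alternatives, among them each fit that left out 1 array other than an IFNa array (adjusted p = 0.0607 to 0.201). Without IFNa replicate 2 the difference was 0.57 (limma adjusted p = 0.00209). AMN107 and IFNa cells differed by 0.47 in Cxcl10 (95% interval 0.22 to 0.71), AMN107 being higher on both arrays, and by 0.31 without IFNa replicate 2. AMN107-IFNa and IFNg cells, at means of 2931 and 3157, differed by -0.11 (95% interval -0.35 to 0.13). Cells given both agents differed from DMSO cells by 2.44 in AMN107-IFNg (95% interval 2.20 to 2.69) and 1.60 in AMN107-IFNa cells (1.36 to 1.85). These last 4 differences were added after the values had been seen and carry no call.

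Cxcl11 RNA followed Cxcl9 in its large rise with interferon gamma, and shared with Cxcl10 a smaller rise with AMN107 alone. Probe set 1419697_at read 781 and 567 in AMN107-IFNg cells and 541 and 382 in IFNg cells. Lower signals were read in AMN107-IFNa cells (88.4 and 97.6), IFNa cells (73.3 and 74.9) and AMN107 cells (72.0 and 85.6), and the lowest in DMSO cells (47.6 and 44.8). The interferon gamma groups lay far above the others, IFNa and AMN107 cells overlapped, and DMSO cells lay below every other group. The second Cxcl11 probe set, 1419698_at, was dim: 39.5 and 48.2 in AMN107-IFNg, 32.6 and 21.0 in IFNg, and 4.60 to 7.96 on the other 8 arrays. It was tested only because of its signal with interferon gamma. Set against DMSO cells, cells given both agents differed in Cxcl11 by 3.62 in AMN107-IFNg (95% interval 3.22 to 4.02) and by 0.89 in AMN107-IFNa (0.49 to 1.29), values added after the data had been seen and given with no call.

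Between IFNg and DMSO, Cxcl11 differed by 3.08 on the log2 scale (SE 0.18, limma adjusted p = 4.14e-06), 8.45-fold, and between AMN107-IFNg and AMN107 by 2.95 (SE 0.18, limma adjusted p = 8.89e-06), 7.73-fold. Between AMN107 and DMSO it differed by 0.67 (SE 0.18, limma adjusted p = 0.0185), 1.59-fold. This last call was lost without DMSO replicate 1 (0.71, adjusted p = 0.0780), DMSO replicate 2 (0.63, adjusted p = 0.0889) or AMN107 replicate 2 (0.56, adjusted p = 0.130). IFNa against DMSO gave 0.59 (SE 0.18, limma adjusted p = 0.0554), and 0.58 (adjusted p = 0.0817) without IFNa replicate 2, so a 1.51-fold difference missed the threshold. Without IFNa replicate 1 it was 0.61, a fit in which the array with the low GAPDH ratio stood alone for the IFNa group. The dim probe set gave 1.36 for IFNg against DMSO (limma adjusted p = 0.000311) and 0.05 for AMN107 against DMSO (limma adjusted p = 0.821).

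**Figure D1:**
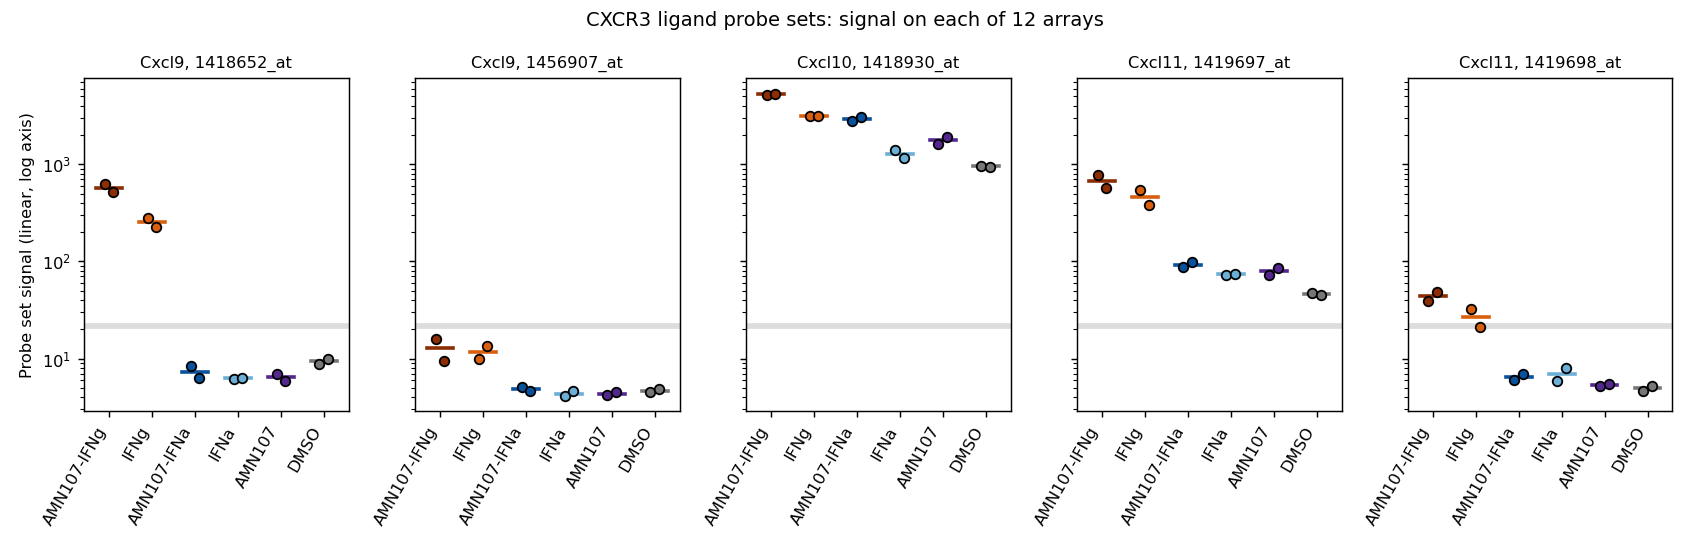
Signal of the 5 ligand probe sets on each of the 12 arrays (log axis), with AMN107-IFNg leftmost and DMSO rightmost; circles are arrays, bars are group means (n = 2), and the grey band spans the array medians. Cxcl9 stands above the band only with interferon gamma, Cxcl10 lies far above it in every group (947 to 5360), and Cxcl11 1419697_at lies above it on all 12 arrays.

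In count, 3 of 3 ligand genes (by the brightest probe set) were higher in IFNg than in DMSO cells, where 6.65% of all tested probe sets were called higher and 8.98% either way. Cxcl9 had passed the filter through the groups in which it was high, and with no filter all 3 were again called. Of the 3 ligands, 1 was called higher with IFNa against DMSO (Cxcl10), where 8.91% of probe sets were called higher and 12% either way. AMN107 against DMSO called 2 of 3 higher (Cxcl10 and Cxcl11), where 20.7% of probe sets were called higher and 33.1% either way, so calls in this comparison were common on the array. The median log2 difference of the 3 ligands was 3.08 for IFNg against DMSO, 0.67 for AMN107 against DMSO and 0.41 for IFNa against DMSO, against medians over all tested genes of -0.03, 0.02 and 0.04. Without IFNa replicate 2 the ligands' median for IFNa against DMSO was 0.57.

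The 2 interferons were set against each other directly. Cxcl9 had passed the filter through the interferon gamma groups, in which it was high. With no filter all 3 ligands were called higher in IFNg than in IFNa cells, where 879 of 45037 probe sets were. With the filter all 3 were called as well, where 4.48% of probe sets were called higher. The log2 differences were 4.13 for Cxcl9 (limma adjusted p = 7.05e-08), 2.49 for Cxcl11 (5.05e-05) and 1.30 for Cxcl10 (0.000156). Without IFNa replicate 2 they were 4.14, 2.50 and 1.15, all still past the threshold. Under AMN107, all 3 were called higher in AMN107-IFNg than in AMN107-IFNa cells with no filter, where 213 of 45037 probe sets were. With the filter all 3 were called as well, where 0.928% of probe sets were called higher. These differences were 5.19 for Cxcl9 (limma adjusted p = 2.51e-08), 2.73 for Cxcl11 (2.66e-05) and 0.84 for Cxcl10 (0.00419). The Cxcl10 call was lost without AMN107-IFNa replicate 1 (0.77, adjusted p = 0.0789), AMN107-IFNg replicate 1 (0.87, adjusted p = 0.0508) or AMN107-IFNg replicate 2 (0.81, adjusted p = 0.0655). On the brightest probe sets, Cxcl9 separated the interferons most and Cxcl10 least in both settings. The Cxcl9 differences rest on dim signals without interferon gamma and ran from 3.30 to 5.13 and from 4.36 to 6.12 over the alternatives. In the fit with no filter, the dim Cxcl9 probe set gave 0.64 in both settings, below the values of Cxcl10.

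AMN107 added to interferon gamma was followed by higher Cxcl9 and Cxcl10. Cxcl9 was at 576 ± 82.8 in AMN107-IFNg and 254 ± 41.7 in IFNg cells, a log2 difference of 1.16 (SE 0.13, limma adjusted p = 0.000465), 2.23-fold. Cxcl10 was at 5248 ± 159 in AMN107-IFNg and 3157 ± 2.28 in IFNg cells, a difference of 0.73 (SE 0.11, limma adjusted p = 0.00202), 1.66-fold. Cxcl11 was at 674 ± 151 in AMN107-IFNg and 462 ± 113 in IFNg cells (SD, n = 2 in all 3), a difference of 0.54 (SE 0.18, 95% interval 0.14 to 0.94, limma adjusted p = 0.0712) that missed the threshold. It passed without IFNa replicate 1 (limma adjusted p = 0.0148), without IFNa replicate 2 (0.0145) or without IFNg replicate 1 (0.79, 0.0401). The dim Cxcl11 probe set, above the array median on only 3 arrays, gave 0.58 (SE 0.14, limma adjusted p = 0.0236). That call was lost in 3 of 22 alternatives: without AMN107-IFNg replicate 1 (0.70), AMN107-IFNg replicate 2 (0.46) or IFNg replicate 2 (0.34). Both AMN107-IFNg arrays were above both IFNg arrays on each of the 3 brightest probe sets. The share of all probe sets with this separation was not counted, so it adds nothing to the calls. By the brightest probe set, 2 of 3 ligands were called higher, where 10.9% of all tested probe sets were called higher and 15.4% either way. Cxcl9 had passed the filter through these groups. With no filter the same 2 were called, where 2282 of 45037 probe sets were called higher.

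With interferon alpha, 1 of 3 ligands was called higher in AMN107-IFNa than in IFNa cells, where 11.2% of probe sets were called higher. This was Cxcl10, by 1.19 (SE 0.11, limma adjusted p = 0.000127), 2.28-fold, and by 1.04 (adjusted p = 1.57e-06) without IFNa replicate 2. Fitting only the 2 groups compared gave the same 1.19 with adjusted p = 0.0655. Cxcl11 differed by 0.30 (limma adjusted p = 0.267) and Cxcl9 by 0.10 (limma adjusted p = 0.633). Without IFNa replicate 2 these were 0.31 (adjusted p = 0.243) and 0.11 (adjusted p = 0.637).

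The response to each interferon was also measured within AMN107-treated cells. Cxcl9 had passed the filter through the interferon gamma groups. With no filter all 3 ligands were called higher in AMN107-IFNg than in AMN107 cells, where 406 of 45037 probe sets were. With the filter all 3 were called as well, where 1.74% of probe sets were called higher. Cxcl10 differed there by 1.56 (SE 0.11, limma adjusted p = 2.52e-05), 2.96-fold. In AMN107-IFNa against AMN107, 1 of 3 was called higher, where 0.119% of probe sets were called higher. It was Cxcl10, by 0.72 (SE 0.11, limma adjusted p = 0.0480), 1.65-fold. That call was lost in 13 of 24 alternatives, among them each fit that left out 1 array other than an IFNa array (adjusted p = 0.0659 to 0.717) and the fit with the replicate number as a block (adjusted p = 0.0712). Without IFNa replicate 2 the same 0.72 had adjusted p = 0.000129. Cxcl11 differed by 0.22 in this comparison (limma adjusted p = 1.0).

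**Figure D2:**
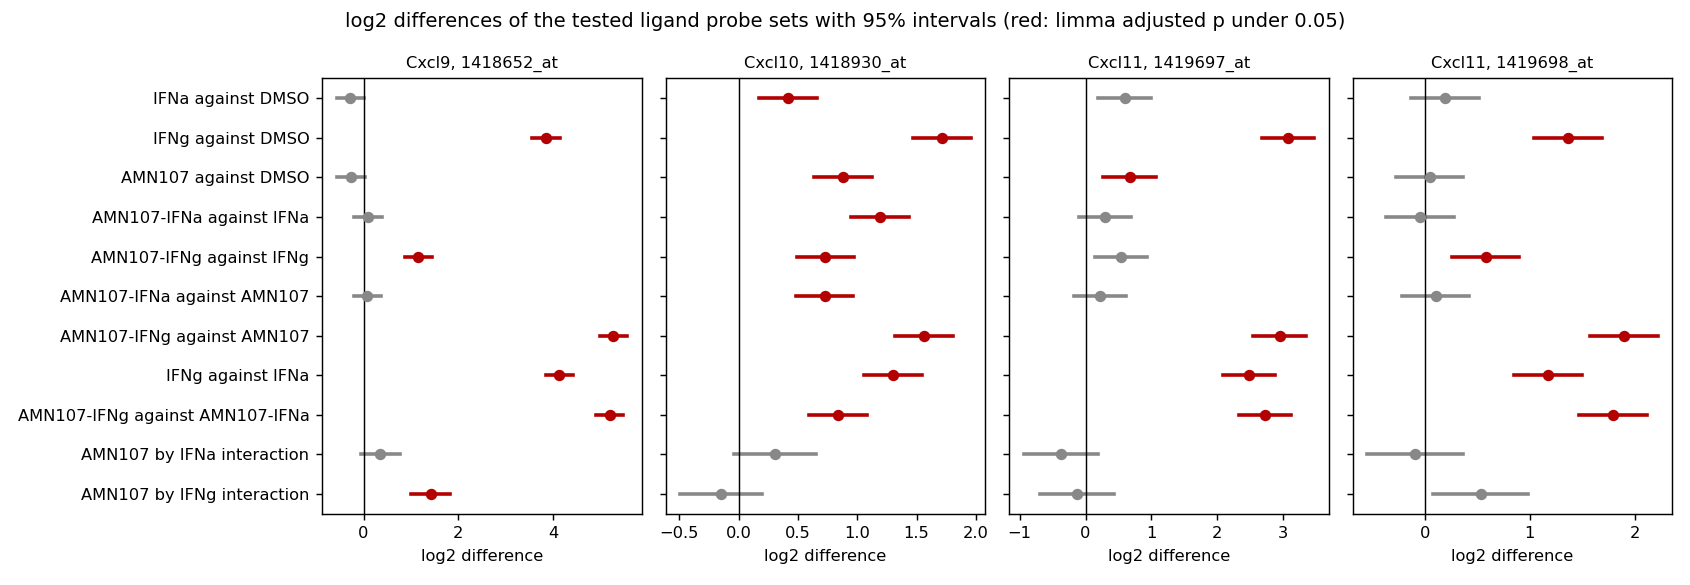
Log2 difference of each tested ligand probe set in the 9 comparisons and 2 interactions, with 95% intervals from limma; red marks an adjusted p under 0.05. Cxcl9 is past the threshold only where interferon gamma enters, up to 5.27, whereas Cxcl10 is past the threshold in all 9 comparisons and in neither interaction.

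The interaction asks whether the interferon response itself differed with AMN107. For interferon gamma, 1 of 3 ligands had a larger response under AMN107 with no filter, where 16 of 45037 probe sets were called larger. The same ligand was called with the filter, which it had passed through the interferon gamma groups, where 0.111% of probe sets were called larger. It was Cxcl9, whose response was 5.27 under AMN107 and 3.85 without it, a difference of 1.42 (SE 0.18, 95% interval 1.01 to 1.83, limma adjusted p = 0.00877). Of this, 1.16 is the difference between AMN107-IFNg and IFNg cells, and 0.26 comes from the dim AMN107 and DMSO signals. With signals under the 25th percentile of their array set to it, the interaction was 1.25 (limma adjusted p = 0.00983). The call was lost without DMSO replicate 1 (1.46, adjusted p = 0.0578) or AMN107 replicate 2 (1.36, adjusted p = 0.0667), and adjusted p ran from 7.62e-05 to 0.0667 over the 24 alternatives. The responses of Cxcl10 differed by -0.15 (SE 0.15, limma adjusted p = 0.756) and those of Cxcl11 by -0.13 (SE 0.25, limma adjusted p = 0.893), neither of which passed. The dim Cxcl11 probe set gave 0.53, of the opposite sign (SE 0.20, limma adjusted p = 0.296). The dim Cxcl9 probe set, 1456907_at, gave 0.10 in the fit with no filter (limma adjusted p = 0.903). So the larger Cxcl9 response was called on the brighter probe set alone. For interferon alpha, 0 of 3 ligands passed, where 0.152% of probe sets were called either way. Those interactions were 0.36 for Cxcl9 (limma adjusted p = 0.270), 0.31 for Cxcl10 (0.262) and -0.37 for Cxcl11 (0.374), and without IFNa replicate 2 they were 0.37, 0.16 and -0.36. By limma's unadjusted p, 0 of the 3 were under 0.05 as well. The Cxcl10 interaction was 0.46 without IFNa replicate 1, a fit in which the array with the low GAPDH ratio stood alone for the IFNa group.

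The receptor CXCR3 and the proteins that bind or trim the ligands were measured beside them. Cxcr3 itself was dim in these fibroblasts, at 16.4 to 29.1 on the 12 arrays, and was called lower in AMN107 than in DMSO cells (-0.36, limma adjusted p = 0.0213). Ackr3, an atypical receptor that takes up CXCL11 and CXCL12, read 122 and 131 in AMN107-IFNg, 92.3 and 75.1 in IFNg, 108 and 127 in AMN107 and 68.8 and 56.6 in DMSO cells. It rose with AMN107 by 0.82 (limma adjusted p = 0.00118) and in AMN107-IFNg against IFNg by 0.55 (0.0152). Ackr1, a scavenger of many chemokines, fell by 0.47 with AMN107 (limma adjusted p = 0.0105), and Dpp4, the protease that shortens CXCR3 ligands, fell by 0.28 (0.0405). In AMN107 against DMSO, 1 of these 4 genes was called higher and 3 lower, where 33.1% of all tested probe sets were called either way. In AMN107-IFNg against IFNg, 1 was called higher and 1 lower, where 15.4% of all were called. With IFNg against DMSO, 0 of these 4 genes were called, where 8.98% of all were called. The values there were 0.37 for Ackr3, 0.02 for Ackr1, -0.11 for Dpp4 and -0.30 for Cxcr3. By limma's unadjusted p, 2 of the 4 were under 0.05.

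Other chemokines were counted from lists chosen by family. Of 18 CC chemokines with a probe set, 10 were tested, and in IFNg against DMSO 2 were called higher and 1 lower, with a list median of -0.01, where 6.65% of all tested probe sets were called higher and 8.98% either way. These were the monocyte attractant Ccl2 (0.82, limma adjusted p = 0.0191), at 1646 and 1631 in IFNg against 961 and 886 in DMSO cells, Ccl8 (0.39, 0.0380) and Ccl5 (-0.35, 0.0246). Of 6 tested members of the other CXC and CX3C families, 1 was called higher, the membrane-bound chemokine Cx3cl1, by 1.29 (limma adjusted p = 5.86e-05). Cxcl1, a neutrophil attractant and the only tested member of the ELR group (CXC chemokines with a Glu-Leu-Arg motif, 6 on the array), differed by 0.39 (limma adjusted p = 0.136). The ligands' 3.85, 3.08 and 1.71 were larger than the difference of any other tested chemokine in this comparison. With AMN107 against DMSO the CC list had 2 higher and 4 lower of 10, with a median of -0.09, where 20.7% of all probe sets were called higher and 33.1% either way. The other CXC and CX3C list had 1 higher and 2 lower of 6, led by Cxcl12, the ligand of CXCR4. Cxcl12 read 73.1 and 62.7 in AMN107 against 24.9 and 31.0 in DMSO cells, a difference of 1.07 (limma adjusted p = 0.000136) that was above those of Cxcl10 and Cxcl11. In AMN107-IFNg against IFNg, 1 of 10 CC chemokines (Ccl25, 0.33) and 1 of 6 others (Cxcl12, 0.76) were called higher, where 10.9% of all probe sets were.

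**Figure D3:**
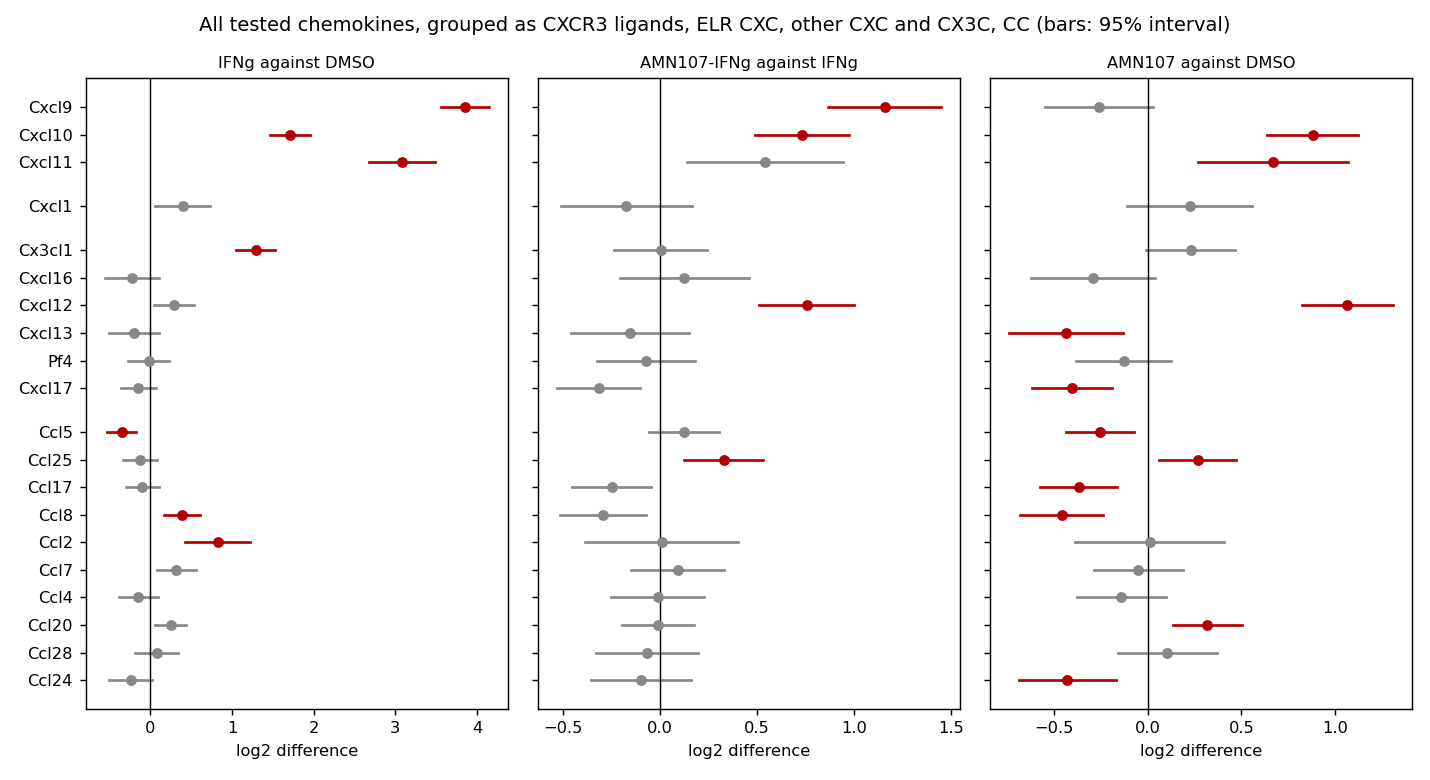
Log2 differences with 95% intervals of all tested chemokines for IFNg against DMSO, AMN107-IFNg against IFNg and AMN107 against DMSO; red marks a limma adjusted p under 0.05, and the 3 panels have their own axes. The CXCR3 ligands head the first panel (3.85, 1.71 and 3.08), and Cxcl12 (1.07) lies above Cxcl10 (0.88) in the third.

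Genes that carry the interferon signal to the ligands were counted next. Of 5 tested members of the interferon gamma route, 2 were higher in IFNg than in DMSO cells, where 6.65% of all probe sets were. They were the transcription factor Irf1 (2.89, limma adjusted p = 3.08e-07), at 1610 and 1478 in IFNg against 184 and 218 in DMSO cells, and the kinase Jak2 (0.48, 0.0181). Ifngr1, Ifngr2 and Jak1 gave 0.29, 0.19 and 0.56 and were not called. Under AMN107, Irf1 read 1288 and 1255 in AMN107-IFNg against 1610 and 1478 in IFNg cells, a difference of -0.28 (limma adjusted p = 0.154), beside 1.16 for Cxcl9 and 0.73 for Cxcl10. In that comparison Jak2 was higher by 0.56 (limma adjusted p = 0.00543) and Ifngr1, a chain of the interferon gamma receptor, fell by 0.48 (0.0140). Of 7 members of the type I interferon route, 4 were higher with IFNg against DMSO, led by Stat2 (1.39, limma adjusted p = 0.000362) and Irf9 (1.32, 0.00126).

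With AMN107 alone, 5 of the 7 type I members were higher, led by Irf7 (1.63, limma adjusted p = 0.00108), Irf9 (1.49, 0.00027) and Stat2 (0.85, 0.00272). Of all tested probe sets, 20.7% were called higher in this comparison. The list median was 0.40, against 0.02 over all tested genes. Irf7, which drives late type I interferon transcription, read 405 and 523 in AMN107 against 136 and 149 in DMSO cells. Of 7 NF-kappaB subunits and inhibitors, limma called 0 with IFNg (0 also by unadjusted p), where 8.98% of all probe sets were called either way. With AMN107, 2 of the 7 were higher (Relb 0.51 and Ikbkb 0.26), a share near the 20.7% of all probe sets. Of 9 cytokines that can induce the ligands, 3 were tested. Limma called 0 of them in IFNg against DMSO, AMN107 against DMSO or AMN107-IFNg against IFNg (0, 1 and 0 by unadjusted p). Of all tested probe sets, 8.98%, 33.1% and 15.4% were called either way in these comparisons. The tested 3 were Ifna1 (32.3 to 46.6, above the median on all 12 arrays), Ifna4 (16.5 to 25.7, above it on 7) and Tnf (above it on 2). Of the untested, Ifnb1 read 8.92 to 16.3 and Ifng 2.29 to 3.58, below the median of all 12 arrays. Nfkb1 was not analysed here.

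Genes beside the ligands on chromosome 5 were read in the same comparisons. Of the neighbours, Naaa, Sdad1, Nup54 and Scarb2 were tested, and in IFNg against DMSO 1 of 4 was higher: Naaa, a lysosomal amidase, by 0.83 (limma adjusted p = 0.00851), where 6.65% of all probe sets were called higher. Scarb2, a lysosomal membrane protein, was higher with AMN107 alone by 0.77 (limma adjusted p = 0.000181), as was Naaa by 1.16 (0.000526), where 20.7% of all probe sets were. Art3, whose gene overlaps those of Cxcl10 and Cxcl11 on the opposite strand, read 3.46 to 6.31 and was above the median of no array.

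The genes most like each ligand were taken by Pearson r over the 12 arrays, as a description in which the points share arrays and groups. For Cxcl9 they were Mpeg1 (0.993), the transcription factor Batf2 (0.987), Cdc42ep2 (0.978), Notch1 (0.975) and the inflammatory caspase Casp4 (0.972). Mpeg1, which encodes a pore-forming protein, read 115 and 93.9 in AMN107-IFNg, 60.4 and 62.1 in IFNg and 13.5 to 18.6 on the other 8 arrays, so it showed the additional step under AMN107 as well. Batf2 read 244 and 212 in AMN107-IFNg and 205 and 226 in IFNg cells, so those groups overlapped. For Cxcl10 the genes were Stat2 (0.981), the cytokine Il15 (0.977), Dtx3l (0.974), Tmem140 (0.973) and Fhod3 (0.969). Il15 read 196 and 186 in AMN107-IFNg, 96.1 and 88.8 in IFNg, 104 and 120 in AMN107-IFNa, 54.0 and 49.6 in IFNa and 57.3 and 66.8 in AMN107 cells. For Cxcl11 they were Cx3cl1 (0.983), Casp12 (0.981), Gpat3 (0.980), the MHC class I activator Nlrc5 (0.978) and Cd274, which encodes PD-L1 (0.978). Among themselves, Cxcl9 and Cxcl11 had r = 0.969, Cxcl10 and Cxcl11 0.873 and Cxcl9 and Cxcl10 0.781 (n = 12 arrays). The lists depend on the measure: with Spearman rho, 1, 2 and 0 of the 5 genes for Cxcl9, Cxcl10 and Cxcl11 were again among the first 5, and without IFNa replicate 2, 3 of 5 for each.

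**Figure D4:**
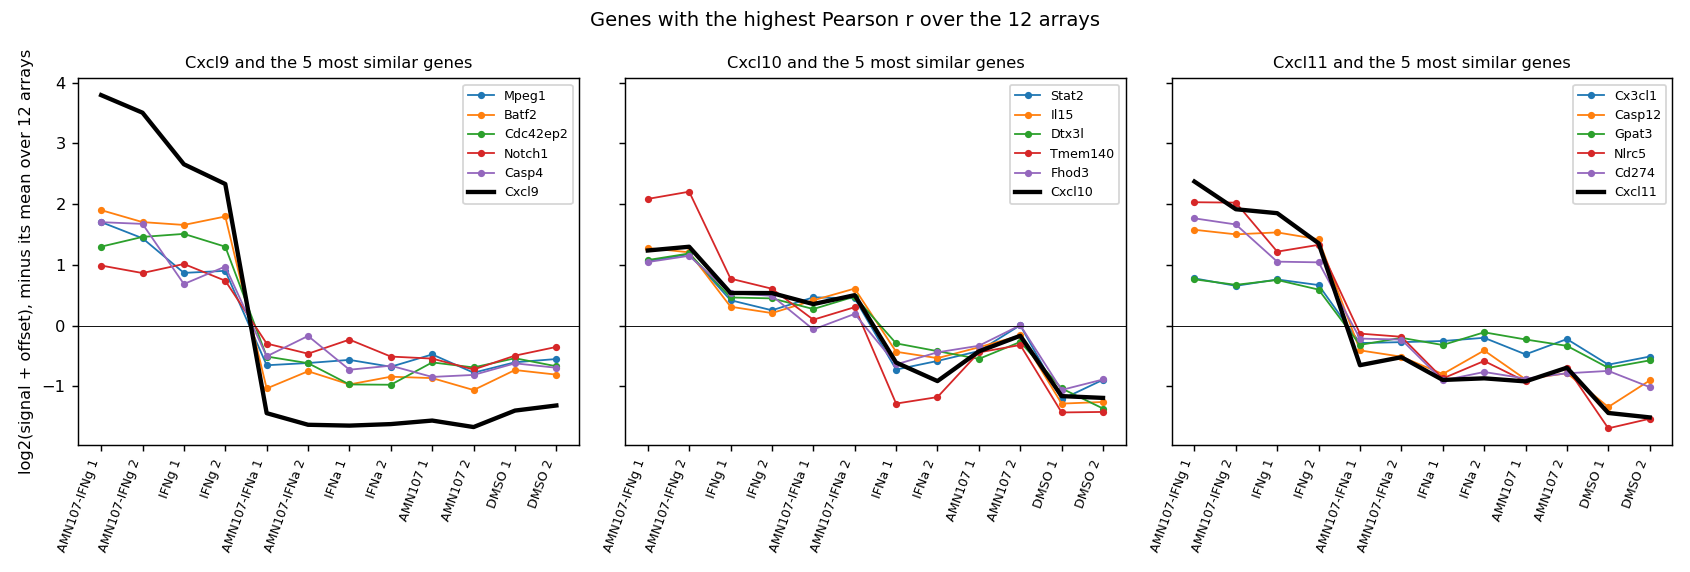
Values of log2(signal + 8.66) minus the gene's mean over the 12 arrays, for each ligand (black) and the 5 genes with the highest Pearson r, with AMN107-IFNg arrays leftmost and DMSO arrays rightmost. Cxcl9 and its like genes step up on the 4 arrays with interferon gamma, and Cxcl10 and its like genes rise in smaller steps over the 6 groups.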

How the data were processed

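Total RNA of 12 mouse embryonic fibroblast cultures, 2 in each of 6 groups that the labels call biological replicates, was measured on 1 Affymetrix array each. The deposited values are linear probe set intensity signals, for which the submitters' processing notes name MAS5 with no version or scaling rule; detection calls were not used here. After 64 control probe sets were left out, 34945 probe sets carried exactly 1 gene in the platform annotation.

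The deposited signals were taken as log2(signal + 8.66), the offset being the mean over arrays of the 25th percentile, with no further normalization. The tests took 24363 probe sets, those whose signal passed its array's median at least 2 times in 12, so a probe set bright in 1 group alone could enter. Of the 5 ligand probe sets, 4 were tested. A linear model of group means was estimated with limma 3.58.1 (R 4.3.3; lmFit, trended eBayes) from the 12 arrays together. It gave 11 contrasts with two-sided p-values, adjusted by Benjamini-Hochberg over the tested probe sets, with a threshold of 0.05. SE is limma's standard error, folds are ratios of signal + 8.66, and intervals are 95% intervals. The p-values rest on the spread of 2 arrays a group, shared over groups, and the number of arrays limits the precision; an exact permutation test of 2 against 2 arrays cannot go below 0.333. A gene outside the ligands is given by its brightest probe set. Named genes were the ligand probe sets, members of gene lists (up to 4 per list by the size of a passing difference, and each member of a list of 6 or fewer), the ligand genes' neighbours and, per ligand, the 5 genes of highest Pearson r. The ligands, lists and tests were chosen with earlier results of these data known. Promoter stretches are from RefSeq, GRCm38.p6, and gene order from a RefSeq table of that assembly. The fit was tested on simulated data. The sources do not tie equal replicate numbers together, and the numbers' deviations correlated at -0.14 to 0.32 (above 0.1 in 3 of 15 pairings of groups), so no pairing was used.

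Alternatives were another offset, filter or normalization, 1 probe set a gene, only the groups compared, array weights, the replicate block and leaving out arrays. A floor at the 25th percentile was added after seeing the data.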

Additional observations from a re-analysis of the deposited data

Results flagged for a closer look

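On its brighter probe set, the response of Cxcl9 to interferon gamma differed between cells with and without AMN107 by limma's interaction test. It was 5.27 under AMN107 and 3.85 without it, a log2 difference of 1.42 (SE 0.18, limma adjusted p = 0.00877), with signals of 634 and 517 in AMN107-IFNg and 283 and 224 in IFNg cells. The dim Cxcl9 probe set, 1456907_at, gave an interaction of 0.10 in the fit with no filter (limma adjusted p = 0.903). On the brighter probe set AMN107 and DMSO cells, the baselines of the responses, read 5.87 to 6.99 and 8.88 to 9.93. The call was lost without DMSO replicate 1 (1.46, adjusted p = 0.0578) or AMN107 replicate 2 (1.36, adjusted p = 0.0667).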

How the results depend on the processing

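Of 33 tests of the brightest probe set of each ligand, 20 passed the threshold, and 13 of these passed it in every alternative run. Among the 13 were IFNg against DMSO and AMN107-IFNg against AMN107 for all 3 ligands, and AMN107-IFNg against IFNg for Cxcl9 (0.99 to 1.32) and Cxcl10 (0.70 to 0.76). The following results changed their side of the threshold, for causes that were not tested. Cxcl10 for IFNa against DMSO missed the threshold with no filter (0.41, adjusted p = 0.0545), only the groups compared (0.41, adjusted p = 0.350), array weights (0.41, adjusted p = 0.268) and quantile normalization (0.31, adjusted p = 0.122). Cxcl10 for AMN107-IFNa against AMN107 missed it with an offset of 1 (0.73, adjusted p = 0.0573), median centring (0.72, adjusted p = 0.0553) and the replicate block (0.72, adjusted p = 0.0712), and the replicate block changed no other call of these 33. With only the groups compared, Cxcl10 missed it for AMN107-IFNa against IFNa (1.19, adjusted p = 0.0655) and IFNg against IFNa (1.30, adjusted p = 0.0828). Cxcl11 for IFNa against DMSO passed with an offset of 1 (0.67, adjusted p = 0.0467), median centring (0.67, adjusted p = 0.0348) and 1 probe set a gene (0.59, adjusted p = 0.0453). Cxcl11 for AMN107-IFNg against IFNg, 0.54, passed with only the groups compared (adjusted p = 0.0239), without both IFNa arrays (adjusted p = 0.0145) and with array weights (adjusted p = 0.0158). Cxcl9 for AMN107 against DMSO passed with an offset of 1 (-0.49, adjusted p = 0.0464). Over fits that left out 1 array, Cxcl10 ran from 0.26 to 0.57 for IFNa against DMSO, 0.59 to 0.85 for AMN107-IFNa against AMN107, 0.77 to 0.91 for AMN107-IFNg against AMN107-IFNa and 0.16 to 0.46 for the IFNa interaction. Cxcl11 ran from 0.56 to 0.63 for IFNa against DMSO, 0.56 to 0.78 for AMN107 against DMSO, 0.29 to 0.79 for AMN107-IFNg against IFNg and -0.38 to 0.12 for the IFNg interaction, which turned sign. Cxcl9 ran from 1.25 to 1.58 for the IFNg interaction and -0.016 to 0.18 for AMN107-IFNa against AMN107. The dim Cxcl11 probe set turned sign in uncalled results: -0.14 to 0.054 for AMN107-IFNa against IFNa and -0.19 to 0.0063 for the IFNa interaction when 1 array was left out. With the floor at the 25th percentile it gave -0.062 for IFNa against DMSO, -0.059 for AMN107 against DMSO, 0.010 for AMN107-IFNa against IFNa and 0.069 for the IFNa interaction. The share of all probe sets called moved widely: over the alternatives it ran from 0.152% to 54.3% for IFNa against DMSO (12% in the reported fit), 2.59% to 28.8% for IFNg against DMSO (8.98%), 14.3% to 54.2% for AMN107 against DMSO (33.1%), 0.238% to 47.3% for AMN107-IFNa against IFNa (24.1%) and 4.9% to 34.5% for AMN107-IFNg against IFNg (15.4%). It ran from 0% to 0.747% for AMN107-IFNa against AMN107 (0.119%), 0.833% to 6.57% for AMN107-IFNg against AMN107 (1.78%), 0.131% to 48% for IFNg against IFNa (14.1%), 0.353% to 2.42% for AMN107-IFNg against AMN107-IFNa (0.932%), 0.0369% to 43.8% for the IFNa interaction (0.152%) and 0.119% to 13.1% for the IFNg interaction (1.38%). Signals of Cxcl9 without interferon gamma lie at the dim end of the arrays and limit its folds: IFNg against DMSO ran from 3.14 to 4.61 over the alternatives.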
